A study of Mus musculus with 2 samples.

Results

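The cells described here were dermal fibroblasts of embryonic mouse skin in which at least 2 of Aspn, Angptl1, Fibin, Nppc and Mfap4 were detected. They were taken from the authors' lists of dermal cell barcodes. A cell was kept when it had at least 1 UMI (unique molecular identifier, a tag that counts each captured RNA molecule once) of 2 or more of these 5 genes and of more of them than of either comparison set. The first comparison set was Crabp1, Egfl6, Pth1r, Lix1 and Penk, and the second was Clec3b, Mfap5, Nrk, Akap12 and Itm2a. A kept cell also had UMIs of fewer than 3 of the 8 Wnt-responsive genes Axin2, Lef1, Nkd1, Nkd2, Dkk1, Apcdd1, Notum and Tcf7. Such cells, called members below, numbered 1172 of 10328 dermal-list cells and of 19514 barcodes in all. They comprised 642 of 5028 dermal-list cells in the mutant library and 530 of 5300 in the wildtype library. Members were thus chosen by the detected UMIs of these 23 genes in the same cells, so the values of these genes are descriptions and support nothing.

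Flank skin was taken from E14.5 embryos (the number gives days of gestation), dissociated with trypsin, stained with DAPI, sorted and profiled by droplet-based 3′ single-cell RNA sequencing. The Wntless mutant library came from embryos of a cross of K14Cre mice with Wntless fl/fl mice, and the wildtype library came from their littermates. Each library pooled 2 to 3 embryos, and both were prepared in parallel and sequenced on 1 lane. K14Cre acts in keratin 14-expressing epithelium, so the deletion was aimed at the epidermis, and the labels do not state which alleles the wildtype embryos carried. Wntless (Wls, 3:159839672-159938664 on mm10) carries Wnt ligands to the cell surface. Barcodes off the dermal lists with UMIs of 4 or more keratinocyte markers had 7.07 CPM of Wls in the mutant library, against 132 CPM in wildtype barcodes. CPM are UMIs of a gene summed over a set of cells and scaled to a total of 1000000 UMIs over all genes. Wls stood at 77.7 CPM in mutant members and 75.2 CPM in wildtype members (log2 ratio 0.05, 95% interval -0.13 to 0.23). There was 1 library for each genotype, so no difference between the genotypes has a replicate check. Every interval given is exact, covers counting error only, and is not a test of the condition.

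The lead genes of these cells encode secreted proteins. Asporin (Aspn, 13:49544443-49567565) is a small leucine-rich proteoglycan that binds collagen and TGF-beta, and angiopoietin-like 1 (Angptl1, 1:156838562-156861078) is a secreted relative of the angiopoietins. Nppc (1:86666291-86670571) encodes C-type natriuretic peptide, which signals through the guanylyl cyclase receptor Npr2 and is best known for its part in growth of long bones. Mfap4 (11:61485431-61488900) encodes a glycoprotein of elastic microfibrils, and Fibin (2:110360917-110363183) encodes a secreted protein first described in fish fin buds. Embryonic dermis holds an upper layer, which receives epidermal Wnt signals and forms hair follicle condensates, and deeper layers of reticular and fascial fibroblasts. Tenascin C, tendon-type proteoglycans and fibril-associated collagens are typical of connective tissue under tension.

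The start regions of Aspn and Nppc are shown because they differ in base composition although their transcripts mark the same cells. Promoters, from 250 bases before to 50 bases after the start, came from RefSeq (GRCm38.p6), which matched 4 of the 5 lead genes. The capitals mark TATAAA on either strand. The Aspn promoter is chr13:49544193-49544492 on the plus strand and the Nppc promoter is chr1:86670524-86670823 on the minus strand.
Aspn: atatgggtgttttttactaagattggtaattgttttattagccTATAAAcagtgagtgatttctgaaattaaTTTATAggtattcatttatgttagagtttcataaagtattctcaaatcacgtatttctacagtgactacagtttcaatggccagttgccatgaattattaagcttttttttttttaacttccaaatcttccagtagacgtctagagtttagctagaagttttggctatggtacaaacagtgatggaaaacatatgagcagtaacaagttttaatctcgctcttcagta
Nppc: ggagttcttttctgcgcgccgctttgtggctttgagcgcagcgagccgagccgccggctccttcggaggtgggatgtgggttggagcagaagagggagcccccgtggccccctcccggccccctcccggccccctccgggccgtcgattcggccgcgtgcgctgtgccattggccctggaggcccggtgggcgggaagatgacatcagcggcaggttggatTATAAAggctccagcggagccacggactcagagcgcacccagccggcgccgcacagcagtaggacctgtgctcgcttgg
The Aspn window had 31% G and C, at percentile 1.28 of 32851 promoters, and 3 CpG. The Nppc window had 69.3% G and C, at percentile 89.5, and 29 CpG. The median over all promoters was 52.7% and 7 CpG. TATAAA lay 207 and 178 bases before the Aspn start and 29 bases before the Nppc start, and 13.6% of all promoters of this length hold it on either strand. Angptl1 (54.3% G and C, 6 CpG) and Fibin (56.3% G and C, 11 CpG) had no TATAAA in the window. CANNTG, the E-box, matched 2 times in the Aspn window, 1 time in that of Angptl1 and in neither of the other two, and 72.3% of all promoters hold it. A match describes letters in this window only.

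All 5 lead genes were detected in 465 mutant (72.4%) and 336 wildtype (63.4%) members, and 4 of them in 155 mutant and 171 wildtype members. Aspn stood at 477 CPM in mutant members and 354 CPM in wildtype members. In cells led by the first comparison set (Crabp1/Egfl6-set cells, 1464 mutant and 1097 wildtype) it had 13.0 CPM in the mutant and 8.81 in the wildtype library. In cells led by the second (Clec3b/Mfap5-set cells, 885 mutant and 666 wildtype) it had 31.2 CPM in the mutant and 26.4 in the wildtype library. Aspn was thus sparse in both comparison sets, as was Nppc. Nppc reached 240 CPM in mutant and 301 CPM in wildtype members, against 5.32 CPM in mutant and 5.88 CPM in wildtype Crabp1/Egfl6-set cells and 14.7 CPM in mutant and 28.1 CPM in wildtype Clec3b/Mfap5-set cells. The other lead genes were shared more widely. Mfap4 had 951 CPM in mutant and 678 CPM in wildtype members, but also 418 CPM in mutant Crabp1/Egfl6-set cells, against 147 CPM in wildtype ones. Fibin had 436 CPM in mutant and 430 CPM in wildtype members, and 207 CPM in mutant and 233 CPM in wildtype Clec3b/Mfap5-set cells. Angptl1 had 420 CPM in mutant and 346 CPM in wildtype members, with 174 CPM in mutant and 190 CPM in wildtype Clec3b/Mfap5-set cells.

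**Figure D1:**
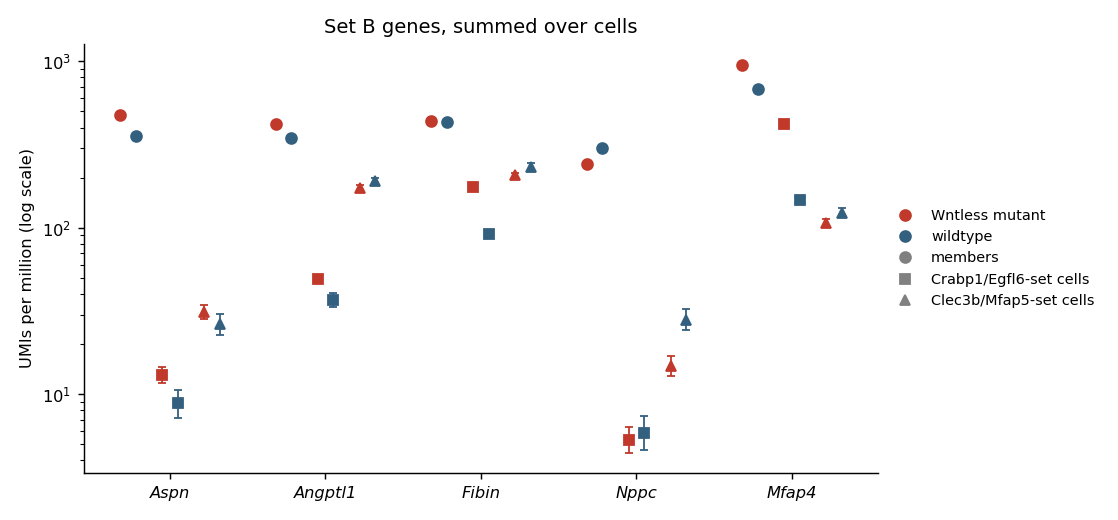
Level of each of the 5 lead genes, in CPM on a log scale, in members (circles), Crabp1/Egfl6-set cells (squares) and Clec3b/Mfap5-set cells (triangles) of the Wntless mutant (red) and wildtype (blue) library. Bars are exact 95% intervals of the counts, and Aspn and Nppc are the lead genes with the widest gap between members (477 and 240 CPM in mutant members) and both other sets.

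Few off-list barcodes with macrophage markers had a UMI of Aspn or Nppc. Aspn had a UMI in 91.4% of mutant and 85.8% of wildtype members, whose median depth was 13891.5 UMIs in the mutant and 9990 UMIs in the wildtype library. In off-list barcodes with macrophage markers, Aspn had a UMI in 3.77% of mutant (median 25497 UMIs) and 5.81% of wildtype barcodes (median 16421.5 UMIs). Nppc had a UMI in 80.2% of members in each library, against 4.09% of mutant and 4.65% of wildtype macrophage-marker barcodes. The other lead genes were seen there more often. Mfap4 had a UMI in 12.3% of mutant and 12.02% of wildtype macrophage-marker barcodes, Fibin in 11.0% of mutant and 8.53% of wildtype ones, and Angptl1 in 7.55% of mutant and 8.14% of wildtype ones. The order was not the same in off-list barcodes with 4 or more keratinocyte markers. Nppc had a UMI in 9.82% of mutant and 5.93% of wildtype ones, above Fibin (7.98% and 5.72%) and Angptl1 (6.13% and 4.66%). Aspn had a UMI in 2.45% of mutant and 4.03% of wildtype ones, and Mfap4 in 13.5% and 9.96%. All 5 genes had a UMI in at least 80.2% of members. Members also carried comparison genes, some at high levels. Itm2a, a gene of the second comparison set that encodes a membrane protein, had 1224 CPM in mutant and 1014 CPM in wildtype members, and was detected in 98.4% of mutant and 97.4% of wildtype ones. Nrk, a kinase gene, had 227 CPM in mutant and 210 CPM in wildtype members, and Akap12, a kinase-anchoring protein gene, had 185 CPM in mutant and 300 CPM in wildtype members. Crabp1, a retinoic acid-binding protein, had 576 CPM in mutant and 482 CPM in wildtype members, and Clec3b, which encodes tetranectin, had 150 CPM in mutant and 75.6 CPM in wildtype members, against 764 CPM in mutant and 548 CPM in wildtype Clec3b/Mfap5-set cells. Mfap5, a microfibril protein, was nearly absent, at 45 UMIs in mutant and 10 UMIs in wildtype members.

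The rule draws a line through a gradient. Aspn was 432 CPM in the 438 mutant members whose lead was by 1 gene and 571 CPM in the 175 whose lead was by 2 genes. It was 277 CPM in the 305 wildtype members with a lead of 1 gene and 461 CPM in the 179 with a lead of 2. Just outside, cells in which the 5 genes tied with the higher comparison set had 204 CPM of Aspn in the mutant (521 cells) and 152 CPM in the wildtype library (327 cells). Across the limit on Wnt genes, Aspn differed less than Nppc. Cells with exactly 3 Wnt genes, which were left out, had 544 CPM of Aspn in the mutant (58 cells) and 331 CPM in the wildtype library (35 cells). Members with exactly 2 Wnt genes had 520 CPM in the mutant and 352 in the wildtype library. Nppc was 211 CPM in mutant and 169 CPM in wildtype cells with exactly 3 Wnt genes, against 269 CPM in mutant and 307 CPM in wildtype members with exactly 2.

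Members came from the dermal lists, so more fibroblast marker RNA than in off-list barcodes goes with that choice and is no test of the label. Fibroblast markers (9 genes, among them Col1a1, Col3a1, Dcn and Pdgfra) summed to 21832 CPM in mutant and 18044 CPM in wildtype members, against 3934 CPM in mutant and 3704 CPM in wildtype off-list barcodes. Members lay between the comparison sets. Crabp1/Egfl6-set cells had 21038 CPM in the mutant and 15232.5 CPM in wildtype, and Clec3b/Mfap5-set cells 23515 CPM and 23395 CPM. Keratinocyte markers summed to 33.5 CPM in mutant and 39.8 CPM in wildtype members, and off-list barcodes had 268 CPM in the mutant and 640 in the wildtype library. Macrophage markers summed to 3.20 CPM in mutant members, with none of 6 genes at 0, and 2.03 CPM in wildtype members, with 2 of 6 at 0. Schwann cell markers summed to 3.42 CPM in mutant members, with 2 of 6 at 0, and 2.03 CPM in wildtype members, with 3 of 6 at 0. Mural cell markers summed to 90.6 CPM in mutant and 121 CPM in wildtype members, with Acta2, Kcnj8 and Cspg4 the highest of them, and the pericyte gene Rgs5 had 1 UMI in each library. Erythroid markers were 248 CPM in mutant and 135 CPM in wildtype members, against 218883 CPM in mutant and 106692 CPM in wildtype off-list barcodes. Off the dermal lists, 128 of 5421 mutant and 160 of 3765 wildtype barcodes met the rule, and these were not used. The libraries shared 19 barcodes, none of them a member in both.

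Members made up 12.8% of mutant dermal-list cells (95% interval 11.9 to 13.7) and 10% of wildtype ones (9.21 to 10.8). The mutant cells were deeper, with a median of 15566 UMIs over the dermal list, against 11154 UMIs in the wildtype library. With each cell thinned to 6000 UMIs and the rule applied again, 718 of 4910 mutant cells (14.6%) and 511 of 5040 wildtype cells (10.1%) were members. Leaving out 1 lead gene sets 4 genes against comparison sets of 5, so fewer cells of either library can be members. When 1 lead gene was left out of the count, members were 5.07% of mutant and 5.57% of wildtype cells without Aspn, 4.18% of mutant and 4.49% of wildtype cells without Angptl1, 4.24% of mutant and 4.47% of wildtype cells without Fibin, and 4.06% of mutant and 4.32% of wildtype cells without Mfap4. Of these 5 changes, leaving out Nppc was the only one that kept the mutant share higher, at 6.15% of mutant and 5.94% of wildtype cells. The order of the shares thus turned with 4 of the 5 genes, but under a changed form of rule and by small margins. Whether these shares differ beyond counting error was not tested. With all 5 lead genes and 9000 UMIs per cell, members were 13.6% of mutant and 8.80% of wildtype cells. Without the Wnt limit they were 14.1% of mutant and 10.9% of wildtype cells. Cells with 3 or more Wnt genes, which the rule removes, were 29.4% of mutant and 49.6% of wildtype dermal-list cells.

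Most members fell into a single expression cluster. The dermal-list cells of both libraries were clustered without the 23 rule genes, and 1 cluster, numbered 0, held 514 mutant members (80.1%, 95% interval 76.8 to 83.1) and 415 wildtype members (78.3%, 74.5 to 81.7). It held 8.33% of mutant and 5.29% of wildtype Crabp1/Egfl6-set cells, and 6.21% of mutant and 14.0% of wildtype Clec3b/Mfap5-set cells. Cluster 0 comprised 1088 mutant and 838 wildtype cells, of which 47.2% in the mutant and 49.5% in the wildtype library were members. Besides Aspn and Nppc, its leading genes were C1qtnf3, Rgcc, Adamts6, Aldh1a3 (a retinoic acid-making enzyme), Lgr5 (an R-spondin receptor), Gfra1 (a GDNF co-receptor), Sparcl1, Sim1 and Kera. The 574 mutant and 423 wildtype cells of cluster 0 that were not members had intermediate levels, with 271 CPM of Aspn in the mutant and 183 in the wildtype library. Members inside cluster 0 had 555 CPM of Aspn in the mutant and 422 in the wildtype library. Members in other clusters had 213 CPM in the mutant (128 cells) and 149 CPM in the wildtype library (115 cells).

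The remaining members were scattered. Cluster 3, which held 83.1% of mutant and 73.4% of wildtype Clec3b/Mfap5-set cells, contained 57 mutant and 37 wildtype members. Cluster 1 was nearly all mutant (1756 mutant and 36 wildtype cells) and held 40 mutant members and no wildtype ones. Cluster 2 was nearly all wildtype (17 mutant and 1605 wildtype cells) and held 4 mutant and 25 wildtype members. With 1 library for each genotype, such clusters may be the library and not a cell type.

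**Figure D2:**
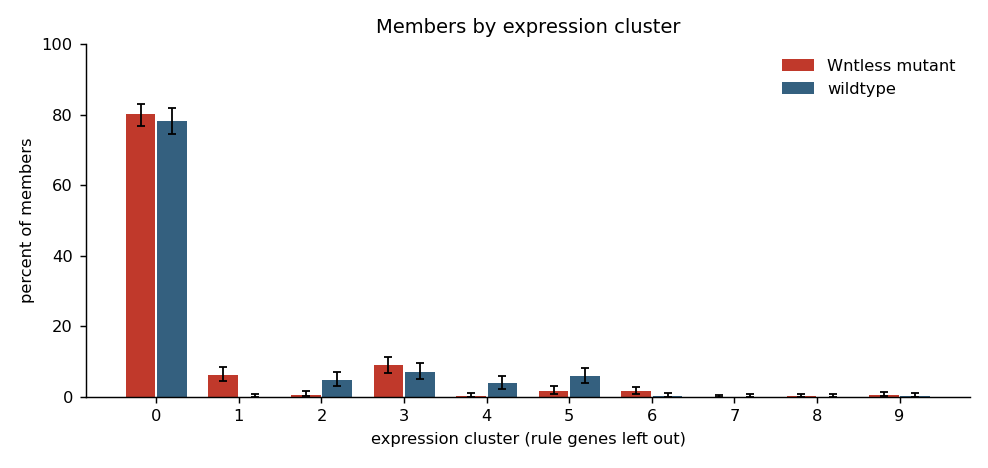
Percent of members in each of 10 expression clusters made without the rule genes, for the Wntless mutant (red) and wildtype (blue) library, with exact 95% binomial intervals. Cluster 0 holds 80.1% of mutant and 78.3% of wildtype members, and no other cluster holds more than 8.88%.

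At a finer resolution the members split into 3 larger groups, which were chosen after the values were seen and carry no test. The largest held 293 mutant (45.6%) and 317 wildtype (59.8%) members and had the highest Nppc, 371 CPM in the mutant and 405 in the wildtype library. Hgf, which encodes hepatocyte growth factor, was 19.5 CPM there against 2.85 CPM in the other mutant members, and 17.1 CPM against 2.95 CPM in wildtype. Gfra1 was 129 CPM against 31.3 CPM in the other mutant members, and 123 CPM against 31.1 CPM in wildtype. The transcription factor gene Pou3f3 was 26.8 CPM against 5.70 CPM in the mutant, and 22.6 CPM against 4.21 CPM in wildtype. A second group of 141 mutant (21.96%) and 111 wildtype (20.9%) members lay in a cluster of 511 mutant and 472 wildtype cells. That cluster held more Clec3b/Mfap5-set cells than members, 190 in the mutant and 200 in the wildtype library. Compared with other members only, the group was marked by 2 transcription factor genes. Gata6 was 114 CPM against 8.05 CPM in the other mutant members, and 94.5 CPM against 7.69 CPM in wildtype, and Hand2 was 37.1 CPM against 3.96 CPM in the mutant and 26.5 CPM against 4.66 CPM in wildtype. The aggrecanase gene Adamts5 (82.3 CPM against 9.75 CPM in the mutant, 53.0 CPM against 6.29 CPM in wildtype) and the neurotrophin receptor gene Ntrk2 (69.8 CPM against 3.25 CPM in the mutant, 32.7 CPM against 5.59 CPM in wildtype) belonged to this group too. The last group was nearly all mutant, with 153 mutant (23.8%) and 10 wildtype (1.89%) members, in a cluster of 662 mutant and 59 wildtype cells. Its leading genes included Col7a1, the anchoring fibril collagen, at 41.6 CPM against 11.6 CPM in the other mutant members, and the eotaxin gene Ccl11, at 72.5 CPM against 22.9 CPM. The 10 wildtype cells had 35.7 CPM of Col7a1 and 62.5 CPM of Ccl11, against 10.9 CPM and 12.4 CPM in the other wildtype members. With 10 cells at a median of 11088.5 UMIs, these wildtype values rest on few UMIs and are no check of the mutant ones. Aspn was lower in this group in the mutant (287 CPM) than in the first group (689 CPM).

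Genes outside the rule set the members apart from both comparison sets in both libraries. A gene was called when the ratio passed 1.5-fold in the same direction in both libraries. Against Crabp1/Egfl6-set cells, 1092 of 11973 measured genes (9.12%) were higher in members and 999 (8.34%) were lower, with a median log2 ratio over all genes of -0.02 in each library. Against Clec3b/Mfap5-set cells, 721 of 11799 genes (6.11%) were higher and 1156 (9.8%) lower, with medians of -0.07 in the mutant and -0.04 in the wildtype library. Because the rule and these ratios come from the same cells, they describe the members and are no test.

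Rgcc, a regulator of the cell cycle and of TGF-beta responses (14:79288756-79301645), had 141 CPM in mutant and 197 CPM in wildtype members. It had 3.55 CPM in mutant and 3.18 CPM in wildtype Crabp1/Egfl6-set cells, and 26.8 CPM in mutant and 50.7 CPM in wildtype Clec3b/Mfap5-set cells. Members were thus above both sets in both libraries, and the smallest of these 4 log2 ratios was 1.95. Cdh3, which encodes P-cadherin (8:106510891-106557297), had 17.2 CPM in mutant and 15.3 CPM in wildtype members, against 0.773 CPM in mutant and 0.734 CPM in wildtype Crabp1/Egfl6-set cells and 2.63 CPM in mutant and 2.98 CPM in wildtype Clec3b/Mfap5-set cells. The metalloprotease gene Adamts6 had 28.9 CPM in mutant and 22.3 CPM in wildtype members, with at most 4.68 CPM in the other sets. These 3 genes were highest in members in both genotypes. Cpm, encoding carboxypeptidase M (10:117629500-117687352), had 30.6 CPM in mutant and 20.6 CPM in wildtype members. Only 4 UMIs of it were counted in mutant and 2 UMIs in wildtype Clec3b/Mfap5-set cells, giving log2 ratios of 6.75 (5.38 to 8.64) in the mutant and 6.19 (4.30 to 9.25) in wildtype. Sparcl1, a matricellular protein also called hevin, had 102 CPM in mutant and 128 CPM in wildtype members, against 19.5 CPM in mutant and 15.7 CPM in wildtype Crabp1/Egfl6-set cells and 15.8 CPM in mutant and 35.6 CPM in wildtype Clec3b/Mfap5-set cells. The phosphodiesterase gene Pde4b, the thyroid hormone receptor gene Thrb, the SMAD corepressor gene Skil, Tmem204, Dlgap1, Pou3f3, Enc1 and the scaffold gene Iqgap2 followed in the same list.

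At the low end stood S100a6, which encodes a calcium-binding protein. It had 37.5 CPM in mutant and 37.97 CPM in wildtype members, against 113 CPM in mutant and 237 CPM in wildtype Crabp1/Egfl6-set cells and 798 CPM in mutant and 811 CPM in wildtype Clec3b/Mfap5-set cells. The secreted protein gene C1qtnf7 had 12 UMIs in mutant and 6 UMIs in wildtype members. It was 10.6 CPM in mutant and 12.2 CPM in wildtype Crabp1/Egfl6-set cells, and 16.3 CPM in mutant and 12.9 CPM in wildtype Clec3b/Mfap5-set cells. Hdac9, Fah, Txnrd3, Ankle1, Diaph3 and 2900026A02Rik were the others at this end.

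**Figure D3:**
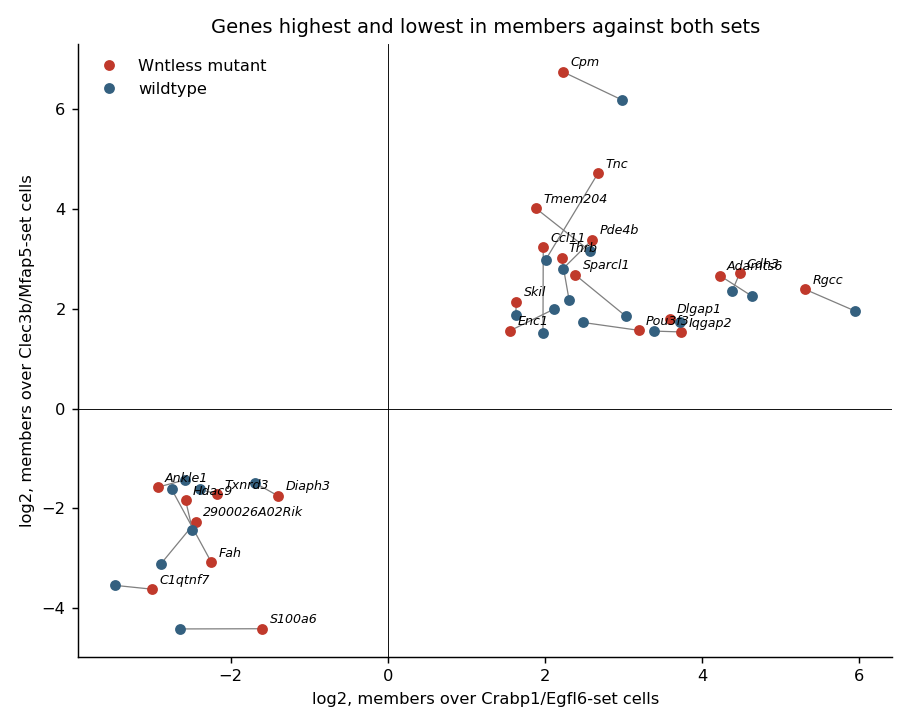
Log2 ratio of members over Crabp1/Egfl6-set cells (horizontal) and over Clec3b/Mfap5-set cells (vertical) for the named genes highest and lowest in members against both sets, with a line joining the Wntless mutant (red) and wildtype (blue) value of a gene. Rgcc lies farthest right (5.31 in the mutant and 5.95 in wildtype) and Cpm highest (6.75 in the mutant and 6.19 in wildtype).

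Tendon-type genes were high in members. Of 8 measured tendon and ligament markers, 6 were higher and none lower in members than in Crabp1/Egfl6-set cells (median log2 3.23 in the mutant and 2.40 in wildtype), and 5 were higher and 1 lower than in Clec3b/Mfap5-set cells (0.97 in the mutant and 0.67 in wildtype). Over all genes, 9.12% were higher and 8.34% lower than in the first set, and 6.11% higher and 9.8% lower than in the second. Tnc, encoding tenascin C (4:63959785-64047015), had 45.0 CPM in mutant and 32.4 CPM in wildtype members. In Crabp1/Egfl6-set cells it was 7.05 CPM in the mutant and 8.08 CPM in wildtype, and in Clec3b/Mfap5-set cells 1.70 CPM in the mutant and 4.11 CPM in wildtype. Scx (15:76457452-76459458), which encodes scleraxis, a transcription factor of tendon progenitors, had 82 UMIs in mutant and 29 UMIs in wildtype members. The much larger Crabp1/Egfl6 set had 0 UMIs in the mutant and 1 UMI in wildtype, and the Clec3b/Mfap5 set had 1 UMI in each. Against 3 counts over the mutant Crabp1/Egfl6 set, Scx in members was at least 6.05 higher on the log2 scale. Kera, encoding the proteoglycan keratocan, had 20.8 CPM in mutant and 26.9 CPM in wildtype members, with 0.818 CPM in mutant and 2.20 CPM in wildtype Crabp1/Egfl6-set cells and 9.23 CPM in mutant and 16.4 CPM in wildtype Clec3b/Mfap5-set cells. Other tendon genes did not follow. Tnmd, the tendon membrane protein tenomodulin, was 5.95 CPM in mutant and 2.40 CPM in wildtype members and 5.68 CPM in mutant and 3.67 CPM in wildtype Crabp1/Egfl6-set cells, and Mkx, a tendon transcription factor gene, had 4 UMIs in mutant and 1 UMI in wildtype members. Fmod, encoding fibromodulin, was the marker lower than in Clec3b/Mfap5-set cells, at 9.70 CPM in mutant and 6.82 CPM in wildtype members against 22.02 CPM in mutant and 24.7 CPM in wildtype cells of that set.

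Scx came from few cells, an observation made after the data were seen. A UMI of Scx was found in 39 mutant (6.07%, 4.36 to 8.21) and 22 wildtype members (4.15%, 2.62 to 6.22). Among the other dermal-list cells it was found in 20 of 4386 mutant (0.456%) and 12 of 4770 wildtype cells (0.252%), and in macrophage-marker barcodes in 0.629% of mutant and 0.388% of wildtype ones. Members were thus 66.1% of mutant and 64.7% of wildtype dermal-list cells with Scx, and all 39 mutant and 21 of the wildtype members with Scx lay in cluster 0. Tnc was 190 CPM in mutant members with Scx against 35.8 CPM in those without, a log2 ratio of 2.41 (2.07 to 2.74). In wildtype it was 138 CPM with Scx against 28.0 CPM without, a log2 ratio of 2.30 (1.68 to 2.88). Col8a1, a network-forming collagen, was 68.2 CPM with Scx against 19.8 CPM without in the mutant, and 115 CPM against 37.2 CPM in wildtype. Other tendon genes did not follow Scx. Kera was 31.3 CPM with Scx against 20.2 CPM without in the mutant (log2 0.64, -0.18 to 1.36), and 23.03 CPM against 27.1 CPM in wildtype. Tnmd was 3.69 CPM with Scx against 6.097 CPM without in the mutant, and had 0 UMIs with Scx in wildtype.

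Lower dermis and fascia genes placed the members between the other sets. Against Crabp1/Egfl6-set cells, 11 of 12 such genes were higher in members and none lower (median log2 1.18 in the mutant and 1.68 in wildtype). Against Clec3b/Mfap5-set cells, 2 of 16 were higher and 9 lower (-1.11 in the mutant and -1.26 in wildtype). The shares over all genes were 9.12% higher and 8.34% lower in the first comparison, and 6.11% higher and 9.8% lower in the second. Col14a1, a collagen of fibril surfaces, had 523 CPM in mutant and 419 CPM in wildtype members, between 234 CPM in mutant and 111 CPM in wildtype Crabp1/Egfl6-set cells and 965 CPM in mutant and 843 CPM in wildtype Clec3b/Mfap5-set cells. Gdf10, a TGF-beta family ligand gene, had 22.3 CPM in mutant and 16.4 CPM in wildtype members, 9.77 CPM in mutant and 3.43 CPM in wildtype Crabp1/Egfl6-set cells, and 88.7 CPM in mutant and 58.0 CPM in wildtype Clec3b/Mfap5-set cells. Markers of fascial fibroblasts were close to absent. Ly6a (4 mutant and 0 wildtype UMIs), Plac8 (4 mutant and 3 wildtype UMIs) and Pi16 (4 mutant and 3 wildtype UMIs) were barely counted in members. Plac8 was 93.4 CPM in mutant and 118 CPM in wildtype Clec3b/Mfap5-set cells, Ly6a 72.9 CPM in mutant and 63.4 CPM in wildtype ones, and Pi16 30.6 CPM in mutant and 32.9 CPM in wildtype ones. Thbs2, encoding thrombospondin 2, was 1 of the 2 that were higher in members than in both sets, at 196 CPM in mutant and 207 CPM in wildtype members.

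Upper dermis genes gave no common direction against Crabp1/Egfl6-set cells, where 3 of 9 were higher and 4 lower in members. Against Clec3b/Mfap5-set cells, 4 of 8 were higher and 1 lower (median log2 0.58 in the mutant and 0.59 in wildtype). Of all genes, 9.12% were higher and 8.34% lower in the first comparison, and 6.11% higher and 9.8% lower in the second. Wif1, a secreted Wnt inhibitor of upper dermis, had 7 UMIs in mutant and 5 UMIs in wildtype members, against 31.4 CPM in mutant and 50.02 CPM in wildtype Crabp1/Egfl6-set cells. Dkk2, also a Wnt inhibitor, had 60.7 CPM in mutant and 85.9 CPM in wildtype members, against 1.0001 CPM in mutant and 4.33 CPM in wildtype Crabp1/Egfl6-set cells and 106 CPM in mutant and 99.1 CPM in wildtype Clec3b/Mfap5-set cells. Sp5, a Wnt target that the rule did not use, had 8.38 CPM in mutant and 15.3 CPM in wildtype members. It stood between 54.3 CPM in mutant and 55.5 CPM in wildtype Crabp1/Egfl6-set cells and 0.781 CPM in mutant and 1.28 CPM in wildtype Clec3b/Mfap5-set cells. Lgr5, also a Wnt target, ran the other way, with 24.8 CPM in mutant and 27.8 CPM in wildtype members, 0.955 CPM in mutant and 2.37 CPM in wildtype Crabp1/Egfl6-set cells, and 4.40 CPM in mutant and 11.2 CPM in wildtype Clec3b/Mfap5-set cells.

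Matrix lists were mixed. Elastic fibre and crosslinking genes were higher in members than in Crabp1/Egfl6-set cells for 12 of 20 and lower for none, and 5 were higher and 7 lower than in Clec3b/Mfap5-set cells. The shares over all genes were 9.12% higher and 8.34% lower in the first comparison, and 6.11% higher and 9.8% lower in the second. Eln, the elastin gene, had 137 CPM in mutant and 125 CPM in wildtype members, against 80.8 CPM in mutant and 47.0 CPM in wildtype Crabp1/Egfl6-set cells and 49.0 CPM in mutant and 47.9 CPM in wildtype Clec3b/Mfap5-set cells. Fbln2, encoding fibulin 2, was 67.9 CPM in mutant and 49.4 CPM in wildtype members but 489 CPM in mutant and 374 CPM in wildtype Clec3b/Mfap5-set cells. Elastin was therefore at its highest in members and fibulin 2 in the Clec3b/Mfap5 set. Small leucine-rich proteoglycans other than asporin were higher than in Crabp1/Egfl6-set cells for 4 of 8 genes, and higher than in Clec3b/Mfap5-set cells for 3 and lower for 2. Bgn, encoding biglycan, was higher than in the Clec3b/Mfap5 set, at 371 CPM in mutant and 340 CPM in wildtype members against 128 CPM in mutant and 162 CPM in wildtype cells of that set. Ogn, encoding osteoglycin, was higher than in the Crabp1/Egfl6 set, at 348 CPM in mutant and 266 CPM in wildtype members against 85.6 CPM in mutant and 81.2 CPM in wildtype cells of that set. Among collagens, 8 of 18 were higher than in Crabp1/Egfl6-set cells and none lower. Col12a1, a collagen of tension-bearing fibrils, was higher than in both sets, with 499 CPM in mutant and 484 CPM in wildtype members, 136 CPM in mutant and 171 CPM in wildtype Crabp1/Egfl6-set cells, and 176 CPM in mutant and 230 CPM in wildtype Clec3b/Mfap5-set cells.

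TGF-beta response genes were higher in members in both comparisons. Of the 7 measured genes, 5 were higher in members than in Crabp1/Egfl6-set cells and none lower, and 4 were higher than in Clec3b/Mfap5-set cells and none lower. Among all genes, 9.12% were higher and 8.34% lower in the first comparison, and 6.11% higher and 9.8% lower in the second. Skil, Ccn2 and Acta2 were higher than in both sets. Pmepa1, a negative regulator induced by TGF-beta, passed the fold over 1 set and had 167 CPM in mutant and 189 CPM in wildtype members, against 120 CPM in mutant and 110 CPM in wildtype Crabp1/Egfl6-set cells and 53.1 CPM in mutant and 73.4 CPM in wildtype Clec3b/Mfap5-set cells. Ccn2, which encodes connective tissue growth factor, had 5.29 CPM in mutant and 4.79 CPM in wildtype members and at most 0.898 CPM in the other sets. Of the insulin-like growth factor axis, 8 of 13 genes were higher than in Crabp1/Egfl6-set cells and none lower, and 3 were higher and 4 lower than in Clec3b/Mfap5-set cells. Igf2 had 1071 CPM in mutant and 908 CPM in wildtype members, against 403 CPM in mutant and 340 CPM in wildtype Crabp1/Egfl6-set cells, and Igfbp2 had 176 CPM in mutant and 222 CPM in wildtype members, against 13.2 CPM in mutant and 32.2 CPM in wildtype Clec3b/Mfap5-set cells. Of 13 imprinted growth genes, 11 were higher and none lower than in Crabp1/Egfl6-set cells, and none was higher and 4 were lower than in Clec3b/Mfap5-set cells.

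Natriuretic peptide signalling beyond Nppc was mixed. Of its measured genes, 2 of 6 were higher and 1 lower in members than in Crabp1/Egfl6-set cells, and 1 of 8 was higher and 3 lower than in Clec3b/Mfap5-set cells. The shares over all genes were 9.12% higher and 8.34% lower in the first comparison, and 6.11% higher and 9.8% lower in the second. In lists this short, a count of 1 gene gives no direction. Nppa and Nppb, the other natriuretic peptides, had 0 UMIs in members of either library. Npr2, the receptor of the Nppc product, was 14.2 CPM in mutant and 11.6 CPM in wildtype members, against 11.1 CPM in mutant and 9.47 CPM in wildtype Crabp1/Egfl6-set cells and 15.8 CPM in mutant and 14.6 CPM in wildtype Clec3b/Mfap5-set cells, which passes the fold in no comparison. Prkg1, a kinase activated by cyclic GMP, was 19.3 CPM in mutant and 16.03 CPM in wildtype members, between the Crabp1/Egfl6-set cells and the Clec3b/Mfap5-set cells (60.1 CPM in mutant and 53.0 CPM in wildtype cells of the second set). Npr3, the clearance receptor, had 60 UMIs in mutant and 54 UMIs in wildtype members, and was 6.61 CPM in mutant and 9.95 CPM in wildtype members against 0.409 CPM in mutant and 3.999 CPM in wildtype Crabp1/Egfl6-set cells. Of other angiopoietin family genes and receptors, 2 of 5 were higher than in Crabp1/Egfl6-set cells, and 1 was higher and 1 lower than in Clec3b/Mfap5-set cells.

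Position and guidance genes gave part of the remaining differences. Hox genes were lower in members than in Crabp1/Egfl6-set cells for 9 of 21 and higher for none, and were higher than in Clec3b/Mfap5-set cells for 4 of 20 and lower for 1. Of all genes, 9.12% were higher and 8.34% lower in the first comparison, and 6.11% higher and 9.8% lower in the second. Hoxa7 had 6.61 CPM in mutant and 5.16 CPM in wildtype members, against 18.2 CPM in mutant and 18.8 CPM in wildtype Crabp1/Egfl6-set cells. Epha4, an ephrin receptor gene, had 93.03 CPM in mutant and 111 CPM in wildtype members, against 4.36 CPM in mutant and 13.5 CPM in wildtype Crabp1/Egfl6-set cells and 39.8 CPM in mutant and 65.1 CPM in wildtype Clec3b/Mfap5-set cells. Zeb2, a repressor gene of mesenchymal cells, was low in members at 62.8 CPM in mutant and 50.9 CPM in wildtype members, against 306 CPM in mutant and 309 CPM in wildtype Crabp1/Egfl6-set cells. Sim1, a basic helix-loop-helix factor gene, was high, at 18.6 CPM in mutant and 21.6 CPM in wildtype members, with 1.41 CPM in mutant and 3.59 CPM in wildtype Crabp1/Egfl6-set cells and 5.75 CPM in mutant and 13.5 CPM in wildtype Clec3b/Mfap5-set cells. Genes induced by dissociation were higher than in Crabp1/Egfl6-set cells for 10 of 14 and lower for none, while 1 of 15 was higher and 3 lower than in Clec3b/Mfap5-set cells. Fos, the best known of them, had 260 CPM in mutant and 319 CPM in wildtype members, against 102 CPM in mutant and 153 CPM in wildtype Crabp1/Egfl6-set cells, and the part of dissociation in the other differences was not tested.

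Cell cycle transcripts were lower in members than in Crabp1/Egfl6-set cells, and mostly did not pass the fold against Clec3b/Mfap5-set cells. All 22 G2M genes measured were lower in members than in Crabp1/Egfl6-set cells in both libraries (median log2 -2.37 in the mutant and -1.93 in wildtype). In that comparison 8.34% of all genes were lower. The G2M genes were then summed. Their summed level was 441 CPM in mutant and 827 CPM in wildtype members, against 2202 CPM in mutant and 2916 CPM in wildtype Crabp1/Egfl6-set cells and 833 CPM in mutant and 1003 CPM in wildtype Clec3b/Mfap5-set cells. Against Clec3b/Mfap5-set cells, 3 of 22 G2M genes were lower in both libraries (median log2 -0.96 in the mutant and -0.38 in wildtype), where 9.8% of all genes were lower. Of 23 S phase genes, 10 were lower and none higher than in Crabp1/Egfl6-set cells, and none passed the fold in either direction in both libraries against Clec3b/Mfap5-set cells (median log2 -0.29 in the mutant and 0.14 in wildtype). S phase genes summed to 855 CPM in mutant and 1190 CPM in wildtype members, against 1029 CPM in mutant and 1123 CPM in wildtype Clec3b/Mfap5-set cells.

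The same genes differed between the genotypes. Within members, 953 of 11955 measured genes (7.97%) were higher by 1.5-fold in the mutant and 590 (4.94%) lower, with a median log2 ratio of 0.01. Among genes with 100 or more UMIs, 3.25% were higher and 2.8% lower in mutant members. Of 22 G2M genes, 19 were lower in mutant members and none higher, with a median log2 ratio of -0.81 and a range of -1.71 to -0.39. Birc5, encoding survivin, had 49.4 CPM in mutant and 125 CPM in wildtype members (log2 -1.34, -1.52 to -1.17). Ube2c, a ubiquitin-conjugating enzyme of mitotic exit, had 33.3 CPM in mutant and 79.1 CPM in wildtype members (log2 -1.25, -1.47 to -1.03), and Cenpa, the centromeric histone gene, had 30.1 CPM in mutant and 79.3 CPM in wildtype members. Mki67, the proliferation antigen gene, differed less, with 28.3 CPM in mutant and 37.8 CPM in wildtype members (log2 -0.42, -0.69 to -0.14). Of 23 S phase genes, 8 were lower and none higher (median -0.50). The number lower was 1 when cells were thinned to 6000 UMIs and 11 when they were thinned to 9000 UMIs. In Crabp1/Egfl6-set cells, where 14% of all genes and 7.67% of those with 100 or more UMIs passed the fold in either direction, 1 of 22 G2M genes was lower in the mutant (median -0.45). In Clec3b/Mfap5-set cells, where 11.2% of all genes and 4.52% of those with 100 or more UMIs did, 2 of 22 were lower (median -0.24). These differences between the sets were not tested.

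Counted by cell, with limits chosen after the data were seen, 54 of 642 mutant members (8.41%, 6.38 to 10.8) and 97 of 530 wildtype members (18.3%, 15.1 to 21.9) had UMIs of 5 or more G2M genes. Thinned to 6000 UMIs, this held for 51 of 718 mutant (7.10%) and 75 of 511 wildtype members (14.7%). The Crabp1/Egfl6-set cells had 35.9% in the mutant and 53.1% in wildtype at 6000 UMIs, against 34.6% in the mutant and 49.6% in wildtype without thinning. The Clec3b/Mfap5-set cells had 11.98% in the mutant and 16.2% in wildtype at 6000 UMIs, but 19.9% in the mutant and 18.0% in wildtype without thinning. At equal depth the mutant share was thus the lower one in all 3 sets. Within cluster 0, 21 of 514 mutant and 39 of 415 wildtype members passed this limit, so many cycling members lay in other clusters. Cluster 5 held 11 mutant and 31 wildtype members, of which 11 mutant and 30 wildtype ones passed it, and in cluster 4 all 2 mutant and 20 wildtype members did. With the members of cluster 0 alone, 16 of the 22 G2M genes were lower in the mutant by 1.5-fold. For 8 or more of 23 S phase genes the shares were 32.6% of mutant and 33.6% of wildtype members, and 11.4% of mutant and 17.8% of wildtype members at 6000 UMIs. No phase was assigned to single cells.

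**Figure D4:**
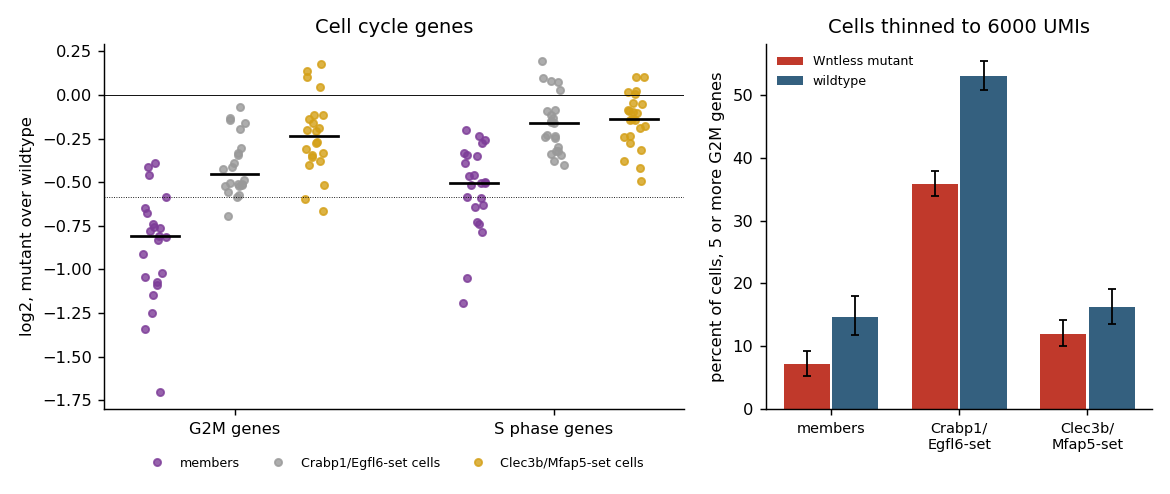
Left, log2 ratio of CPM, mutant over wildtype, of each G2M and S phase gene (points) in members (purple), Crabp1/Egfl6-set cells (grey) and Clec3b/Mfap5-set cells (yellow), with medians as black lines and the 1.5-fold limit dotted. Right, percent of cells with 5 or more G2M genes after thinning to 6000 UMIs, with exact 95% intervals, where members have 7.10% in the mutant and 14.7% in wildtype.

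Genes outside the cell cycle differed between mutant and wildtype members too. Hlf, a bZIP transcription factor gene (11:90336536-90390895), had 187 UMIs or 20.6 CPM in mutant and 26 UMIs or 4.79 CPM in wildtype members, a log2 ratio of 2.10 (1.51 to 2.76). Its ratio was 0.67 in Crabp1/Egfl6-set cells and 0.86 in Clec3b/Mfap5-set cells. Fst, encoding follistatin, a secreted activin antagonist (13:114452290-114458951), had 25.7 CPM in mutant and 6.08 CPM in wildtype members (log2 2.08, 1.55 to 2.65). In Crabp1/Egfl6-set cells the order was the other way, with 8.18 CPM in the mutant and 15.7 CPM in wildtype. Clec3b/Mfap5-set cells had more Fst than members and the same order, with 156 CPM in the mutant and 64.5 CPM in wildtype (log2 1.27, 1.12 to 1.42). Tgfb2, a TGF-beta ligand gene (1:186622792-186705989), had 87.9 CPM in mutant and 35.0 CPM in wildtype members (log2 1.33, 1.10 to 1.56), with ratios of 0.88 in Crabp1/Egfl6-set cells and 0.35 in Clec3b/Mfap5-set cells. Higher levels of a TGF-beta ligand and of an activin antagonist thus stood side by side in the mutant members. Ccl11 had 35.6 CPM in mutant and 13.5 CPM in wildtype members (log2 1.40, 1.03 to 1.79). Of the mutant members, 22.3% had a UMI of Ccl11, against 9.62% of wildtype ones, and in macrophage-marker barcodes the shares were 0.629% in the mutant and 1.16% in wildtype. Ccl11 also led the nearly all-mutant group of members described above, and within cluster 0 its log2 ratio was 1.77.

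The R-spondins, secreted amplifiers of Wnt signalling, were higher in mutant members. Rspo1 (4:124986430-125009099) had 266 CPM in mutant and 121 CPM in wildtype members (log2 1.13, 1.01 to 1.26), and Rspo3 had 35.8 CPM in mutant and 16.96 CPM in wildtype members (log2 1.08, 0.74 to 1.43). Rspo1 was also higher in the mutant in Crabp1/Egfl6-set cells, which had 395 CPM in the mutant and 174 CPM in wildtype. With Sfrp4 (38 UMIs in mutant and 8 UMIs in wildtype members), 3 of 9 Wnt inhibitors and R-spondins were higher and none lower in mutant members. Over all genes, 7.97% were higher and 4.94% lower. In the mutant, 3 of 11 of this list were higher and 0 lower in Clec3b/Mfap5-set cells, and 1 of 12 higher and 4 lower in Crabp1/Egfl6-set cells. Wnt ligand genes moved in opposite directions. Wnt2 had 13.8 CPM in mutant and 7.93 CPM in wildtype members, and Wnt11 had 25.7 CPM in mutant and 43.7 CPM in wildtype members. None of 13 Frizzled and other Wnt receptor genes passed the fold. Sp5 was lower in mutant members (log2 -0.87, -1.34 to -0.40), and of 6 Wnt targets outside the rule 2 were lower and none higher. The number lower was 0 when cells were thinned to 9000 UMIs. Of these targets, 2 of 7 were lower and 0 higher in mutant Crabp1/Egfl6-set cells, and 3 of 6 lower and 1 higher in Clec3b/Mfap5-set cells.

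Protease and guidance genes that passed the fold were all higher in mutant members. Of 19 protease and inhibitor genes, 6 were higher and none lower (median log2 0.42), against 7.97% higher and 4.94% lower over all genes. Htra3, a serine protease gene, had 20.3 CPM in mutant and 11.1 CPM in wildtype members, and Adamts17 had 36.2 CPM in mutant and 20.6 CPM in wildtype members. In the same sense, Adamts1 had 103 CPM in mutant and 65.4 CPM in wildtype members. The corresponding counts were 4 higher and none lower in Crabp1/Egfl6-set cells and 2 higher and 1 lower in Clec3b/Mfap5-set cells. Of 23 guidance ligands and receptors, 6 were higher and none lower in mutant members, read against the same shares. The number higher was 3 when cells were thinned to 9000 UMIs. In Crabp1/Egfl6-set cells 6 of 23 were higher and 3 lower in the mutant, and in Clec3b/Mfap5-set cells 3 of 22 higher and 4 lower. Sema3a had 77.5 CPM in mutant and 47.2 CPM in wildtype members, and Robo1, a Slit receptor gene, had 17.1 CPM in mutant and 9.03 CPM in wildtype members. Sema3d, also a semaphorin gene, had 11.4 CPM in mutant and 6.27 CPM in wildtype members, whereas Crabp1/Egfl6-set cells had 8.32 CPM in the mutant and 28.8 CPM in wildtype. Tendon and ligament markers (3 of 9), lower dermis and fascia genes (3 of 13), angiopoietin family genes (3 of 6) and TGF-beta ligands and receptors (2 of 11) also had higher and no lower calls in mutant members. Most of these calls were genes with few UMIs. Among genes with 100 or more UMIs, higher calls numbered 1 tendon and ligament marker and 0 lower dermis and fascia genes. The angiopoietin family and the TGF-beta ligands and receptors then had 1 each.

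Of 16 adhesion genes, 4 were higher and 1 lower in mutant members, against 7.97% higher and 4.94% lower over all genes. Among genes with 100 or more UMIs, 2 adhesion genes were higher, as were 3.25% of all genes. In Crabp1/Egfl6-set cells 4 of 16 were higher and 2 lower in the mutant. In Clec3b/Mfap5-set cells 1 of 14 was higher and 1 lower. The fibronectin-binding integrin genes Itga4 (15.2 CPM in mutant and 4.24 CPM in wildtype members, log2 1.84, 1.20 to 2.55) and Itga8 (26.3 CPM in mutant and 10.3 CPM in wildtype members, log2 1.35, 0.93 to 1.80) were higher in the mutant. Thy1, a surface glycoprotein gene of fibroblasts, was lower, at 26.8 CPM in mutant and 52.0 CPM in wildtype members. Slc7a10, an amino acid transporter gene, was 20.1 CPM in mutant and 5.16 CPM in wildtype members, and the cholesterol exporter gene Abca1 was 20.0 CPM in mutant and 7.19 CPM in wildtype members. Cadm1, which is outside that list and encodes an immunoglobulin-like adhesion protein, was 9.81 CPM in mutant and 25.1 CPM in wildtype members. In Crabp1/Egfl6-set cells the mutant over wildtype log2 ratio was 0.78 for Itga8, 1.15 for Slc7a10, 0.78 for Abca1 and -1.94 for Cadm1. In Clec3b/Mfap5-set cells it was 0.16 for Itga8, 0.60 for Slc7a10, 0.39 for Abca1 and 0.20 for Cadm1.

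Of 9 measured Hedgehog genes, 3 targets of the pathway were lower in mutant members and none higher, against 4.94% lower over all genes. Ptch1, the Hedgehog receptor and a target of the pathway, had 6.06 CPM in mutant and 13.3 CPM in wildtype members (log2 -1.13, -1.66 to -0.60). Gli1 had 2.31 CPM in mutant and 9.95 CPM in wildtype members, and Hhip had 14 UMIs in mutant and 36 UMIs in wildtype members. The other 6, Gli2, Gli3, Smo, Gas1, Boc and Cdon, did not pass the fold. Among genes with 100 or more UMIs, 1 Hedgehog gene was lower, as were 2.8% of all such genes. Of this list, 4 of 10 genes were lower in the mutant in Crabp1/Egfl6-set cells and 0 of 9 in Clec3b/Mfap5-set cells. In Crabp1/Egfl6-set cells Ptch1 was 6.27 CPM in the mutant and 40.6 CPM in wildtype (log2 -2.70). FGF response genes were lower for 3 of 8 and higher for none, read against the same 4.94% over all genes. The number lower was 1 when cells were thinned to 6000 UMIs. In the mutant, 2 of 9 were lower in Crabp1/Egfl6-set cells and 2 of 8 in Clec3b/Mfap5-set cells, with none higher in either. Dusp6, a phosphatase induced by FGF, had 8.49 CPM in mutant and 15.3 CPM in wildtype members, Spry4 had 12.7 CPM in mutant and 22.3 CPM in wildtype members, and Etv5 had 35 UMIs in each. Igfbp3, an IGF-binding protein gene, was lower too, at 52.6 CPM in mutant and 108 CPM in wildtype members (log2 -1.04, -1.22 to -0.86), as was Bmp2, at 20.0 CPM in mutant and 37.0 CPM in wildtype members (log2 -0.89, -1.19 to -0.60). Bmp4, of the same ligand family, was 21.7 CPM in mutant and 12.9 CPM in wildtype members (log2 0.75, 0.35 to 1.17).

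Among matrix genes, no small leucine-rich proteoglycan of 8 passed the fold between the genotypes (median log2 0.31), of 18 collagens 1 was higher and 1 lower (median 0.29), and of 20 elastic fibre genes 2 were higher and 1 lower (median 0.26). The counts of collagens and elastic fibre genes are near the shares over all genes, 7.97% higher and 4.94% lower. Col25a1 was the higher one, with 91 UMIs in mutant and 17 UMIs in wildtype members. Col8a1 was the lower one, at 22.7 CPM in mutant and 40.4 CPM in wildtype members. No lead gene passed the fold, with log2 ratios of 0.43 for Aspn, 0.28 for Angptl1, 0.02 for Fibin, -0.32 for Nppc and 0.49 for Mfap4. These genes chose the members, so their ratios are descriptions. Over all dermal-list cells, Mfap4 had 452 CPM in the mutant and 204 CPM in wildtype. Aspn had 96.0 CPM in the mutant and 51.4 CPM in wildtype there, and Nppc 44.4 CPM and 42.0 CPM. In members, Scx had a log2 ratio of 0.76 (0.13 to 1.42) on 82 mutant and 29 wildtype UMIs. Acta2, the smooth muscle actin gene, had 38.7 CPM in mutant and 63.6 CPM in wildtype members.

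**Figure D5:**
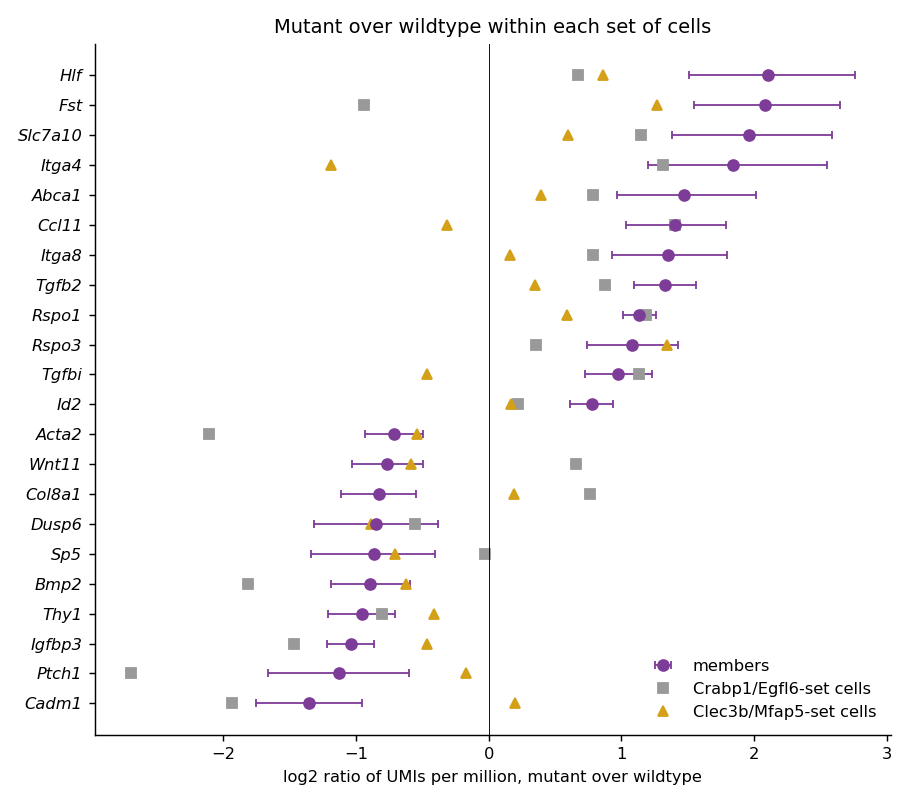
Log2 ratio of CPM, mutant over wildtype, of named genes in members (purple circles, with exact 95% intervals), Crabp1/Egfl6-set cells (grey squares) and Clec3b/Mfap5-set cells (yellow triangles). Hlf (2.10) and Fst (2.08) are the highest in members, and the Fst value of Crabp1/Egfl6-set cells lies on the other side of 0, at -0.94.

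Some large ratios were shared by every set of cells. Gm10320 had 17 UMIs in mutant and 1368 UMIs in wildtype members (log2 -7.07), with ratios of -6.90 in Crabp1/Egfl6-set cells and -6.98 in Clec3b/Mfap5-set cells. AA465934 (log2 -5.32 in members) and Tpm3-rs7 (-4.13), a relative of Tpm3 whose counts may be shared with similar copies, were equally low in the mutant library in the other sets. Gm42418, a locus at which ribosomal RNA reads are known to be counted, was 7355 CPM in mutant and 2947 CPM in wildtype members (log2 1.32), and 1.35 in Crabp1/Egfl6-set and 1.15 in Clec3b/Mfap5-set cells on the log2 scale. The haemoglobin gene Hba-a1 was 69.1 CPM in mutant and 41.5 CPM in wildtype members, and its part in other differences was not tested. Depth, mitochondrial share (2.47% in mutant and 1.94% in wildtype members) and genotype went together in these 2 libraries and cannot be told apart.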

How the data were processed

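Single-cell RNA was measured in 1 Wntless mutant and 1 wildtype library. The authors deposited UMI counts per gene and barcode for each library, and lists of dermal barcodes. Per the file headers the counts came from Cell Ranger 6.1.2. The submitters' processing notes name Seurat and mm10. The filter behind the deposited barcodes, and how the dermal lists were made, are not given in the sources used here.

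The members and the 53 gene lists were chosen with earlier results of these data known. UMIs were summed over the members of each library and over the 2 comparison sets and divided by their totals (CPM). Log2 ratios were taken with exact conditional binomial 95% intervals, and shares with Clopper-Pearson intervals. Genes with 20 or more UMIs over the 2 groups compared were measured, and a gene was called past 1.5-fold. A gene at 0 was set to 3 counts over the set of cells. Libraries held 159841679 (mutant) and 112593376 (wildtype) UMIs, members 9071982 (mutant) and 5425799 (wildtype).

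Named genes were the 8 highest and 8 lowest mutant over wildtype ratios at 200 or more UMIs. Added to them were the 16 highest and 8 lowest genes over both comparison sets at 100 or more UMIs, and up to 3 genes of each list with 100 or more UMIs. Mitochondrial, ribosomal, haemoglobin, Xist, Tsix and Y-linked genes, and genes under 10% of their off-list level, were left out of the extremes. Of the genes this rule names, 2 are not reported here. Other genes, among them Col12a1, Gli1, Mkx, Tnmd, Etv5, Sfrp4, Col25a1 and the leading genes of member groups, were named after their values were seen.

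Dermal-list cells were clustered by the Leiden method (resolution 0.5, 2000 variable genes, 30 components, 15 neighbours) without the 23 rule genes. No doublet caller was run, and cells with 2 or more markers of another cell type or in the top 5% of UMIs were left out in an alternative. Gene positions are from GENCODE M21 on mm10, which held 32158 of 32285 gene IDs. Python 3.11.15, numpy 2.4.6, scipy 1.17.1, pandas 2.3.3, scanpy 1.11.5, leidenalg 0.10.2, scikit-learn 1.9.0 and matplotlib 3.10.9 were used. The summing and interval steps were tested on simulated data.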

Additional observations from a re-analysis of the deposited data

Results flagged for a closer look

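In 4 named genes outside the rule the mutant over wildtype ratio passed 1.5-fold one way in members and the other way in Crabp1/Egfl6-set cells, with 100 or more UMIs and an interval off 0 in both. Genes with fewer UMIs or smaller ratios were not counted. Fst was 2.08 on the log2 scale in members (1.55 to 2.65) and -0.94 in Crabp1/Egfl6-set cells (-1.24 to -0.64). In Clec3b/Mfap5-set cells it was 1.27 (1.12 to 1.42), the same direction as in members. Sema3d was 0.86 in members (0.29 to 1.46) and -1.79 in Crabp1/Egfl6-set cells (-2.06 to -1.53). Wnt11 was -0.77 in members (-1.03 to -0.50) and 0.66 in Crabp1/Egfl6-set cells (0.48 to 0.83). Col8a1 was -0.83 in members (-1.11 to -0.55) and 0.76 in Crabp1/Egfl6-set cells (0.53 to 1.002). The differences were not tested, since each genotype had 1 library and the intervals cover counting error only.

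Barcodes outside the dermal lists also met the rule, in 2.36% of mutant (128 of 5421) and 4.25% of wildtype off-list barcodes (160 of 3765). Of these, 82 mutant and 140 wildtype barcodes lay within the gene and mitochondrial ranges of the dermal lists. In off-list barcodes with UMIs of 4 or more macrophage markers, 4 of 318 mutant and 4 of 258 wildtype ones met the rule.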

How the results depend on the processing

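No paired analysis was possible because each genotype had 1 library, and no library could be left out. Members were 14.6% of mutant cells at 6000 UMIs, 8.80% of wildtype cells at 9000 UMIs, and 14.1% of mutant and 10.9% of wildtype cells without the Wnt criterion. Leaving out 1 lead gene gave 5.07% of mutant and 5.57% of wildtype cells without Aspn, 4.18% of mutant and 4.49% of wildtype cells without Angptl1, 4.24% of mutant and 4.47% of wildtype cells without Fibin, 6.15% of mutant and 5.94% of wildtype cells without Nppc, and 4.06% of mutant and 4.32% of wildtype cells without Mfap4. Genes past 1.5-fold between mutant and wildtype members numbered 1819 higher and 1770 lower without a filter, and 285 higher and 245 lower at 100 or more UMIs. Over Crabp1/Egfl6-set cells, 1980 genes were higher without a filter and 562 at 100 or more UMIs. Over Clec3b/Mfap5-set cells, 1182 were higher without a filter, and 363 were higher and 616 lower at 100 or more UMIs. At resolution 1 the largest cluster held 45.6% of mutant and 59.8% of wildtype members. The log2 ratio of Npr3 between mutant and wildtype members was -0.59, against 0.060 when cells were thinned to 6000 UMIs, and the cause was not tested. Of named-gene values under the alternatives, 3391 stayed, 177 moved and 1 reversed. G2M genes lower in mutant members numbered 13 at 6000 UMIs, 16 in cluster 0 alone, 20 without possible doublets, and 6 when cells with 5 or more G2M genes were left out, the last being set by its own construction. Thinning to 6000 UMIs, leaving out G2M cells and keeping cluster 0 alone were chosen after the data were seen. Depth limits genes under about 20 UMIs.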
